A study of Paxillus involutus and Laccaria bicolor with 24 samples.

Results

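Prolonged glucose depletion (t4) was compared with ammonium depletion (t2) in the mycelium of *Paxillus involutus*, an ectomycorrhizal basidiomycete grown without a host. Gene models were included when their counts averaged 11 or more across the 12 *P. involutus* libraries. This held for 12032 of its 17968 gene models, out of 41098 in both species of the series. Of the others, 4247 had no read in any library and 1689 had reads but stayed under the minimum. The minimum was passed closely by 73 models with a mean count of 11 to under 12, and missed closely by 77 models with a mean count of 10 to under 11.

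The t4 cultures were harvested on day 13 and the t2 cultures on day 5 after the extract was added, with 3 libraries each. All were strain ATCC 200175, had been pre-grown on glass beads in liquid MMN (a minimal nutrient medium), were then starved of nitrogen for a short period, and finally received a hot-water extract of spruce forest soil organic matter (SOM) supplemented with glucose. The t3 libraries (day 9, glucose gone) and the t1 libraries (day 2, active growth), again 3 each, were in the same fit and give the course before and between. The labels call the 3 libraries of a time point biological replicates, the fungus is a single strain, and culture age and nutrient state changed together, so that their parts in any difference cannot be told apart. *Laccaria bicolor*, the other species, had its t4 on day 30 and its t2 on day 13. It too was a single strain taken through the same steps, with a longer pre-growth according to the paper.

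Ectomycorrhizal fungi receive sugar from tree roots and deliver nitrogen to them. Ammonium is a nitrogen source that fungi generally take up before others, and after its depletion they turn to organic nitrogen such as peptides and amino acids. Glucose stood in for the sugar of the host here. At t2 it was still present while ammonium was used up, and at t4 the mycelium had been without it since t3 or earlier. Carbon-starved fungal mycelium is known to stop growing and to recycle its own material, among other routes by autophagy. The comparison asks which transcripts differed between a mycelium short of ammonium and one that had also been short of sugar for days.

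None of the 17968 gene model names was found in the reference table used here, and no other table at hand pairs them with annotated proteins. The results are therefore given as numbers and levels of gene models, with 4 models by name and without a function. RNA was measured in bulk mycelium, in which fewer cells of a kind and less RNA per cell cannot be told apart. Counted reads ranged from 10219492 to 10896080 in the t4 libraries and from 9843577 to 11150409 in the t2 libraries (9843577 to 13595446 over all 12). The tested models took 99.938% or more of the reads in every library. Levels are in CPM, read counts scaled to a common library size, here with TMM factors for composition and without correction for gene length. Fold changes and adjusted p values are from the quasi-likelihood test of edgeR with Benjamini-Hochberg adjustment, at a false discovery rate of 1%.

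Most of the tested models differed between t4 and t2. The test called 6712 models (55.8%), 3332 higher (27.7%) and 3380 lower (28.1%) at t4. Most of these differences were small, since 3087 of the called models (46.0%) changed less than 1.5-fold and 5167 (77.0%) less than 2-fold. The smallest called changes were 0.16 and -0.16 on the log2 scale. Over all tested models the median absolute log2 fold change was 0.38, with a median standard error of 0.089. The median was 0.64 among the higher models and -0.61 among the lower ones. The median of all models was 0.02 with TMM, 0.0043 with the size factors of DESeq2 and -0.0066 with the authors' factors. These scalings assume that most models do not change and so place the median near 0. A shift of RNA common to all models would not be seen. The near-equal numbers of higher and lower models also depend on this centring.

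The separation of the libraries was as wide as these numbers. In 4174 models (34.7%) every t4 library was above every t2 library, and in 4177 models (34.7%) every t4 library was below, together 8351 models (69.4%). Of the 6712 called models, 6680 did not overlap and 32 did. Over all tested models the distance between 2 libraries was 24.99 to 31.96 among the t4 libraries, 24.5 to 24.7 among the t2 libraries, and 76.9 to 88.3 between a t4 and a t2 library, as Euclidean distances of log2 CPM. The nearest t4 and t2 libraries were thus farther apart than any replicates of either time point. The median SD between replicates was 0.10 at t4 and 0.09 at t2 on the log2 scale.

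Large changes formed the smaller part of the response. At least 2-fold higher at t4 were 810 models (6.73%), and at least 2-fold lower were 735 (6.11%), together 1545 (12.8%). Another 10 models differed at least 2-fold without being called. When the size of the change itself was tested against a minimum of 1.5-fold (TREAT in edgeR), 979 models were higher (8.14%) and 1006 lower (8.36%), together 1985 (16.5%). The balance of the directions shifted with the size of the change, as a description. At 4-fold there were 149 higher and 96 lower models, at 8-fold 54 and 21, at 16-fold 29 and 6, and at 32-fold 13 and 2. With the authors' factors in edgeR the 2-fold lists turned to 730 higher and 777 lower, and with the same factors in DESeq2 to 743 and 788. At 4-fold the factors gave 158 and 134 in edgeR, at 8-fold 50 and 28, at 16-fold 26 and 7, and at 32-fold 6 and 2, so that rises outnumbered falls from 4-fold upwards with them too. These fold classes under other scalings were computed after the data were seen. Log2 fold changes ran from -5.91 to 6.66.

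**Figure D1:**
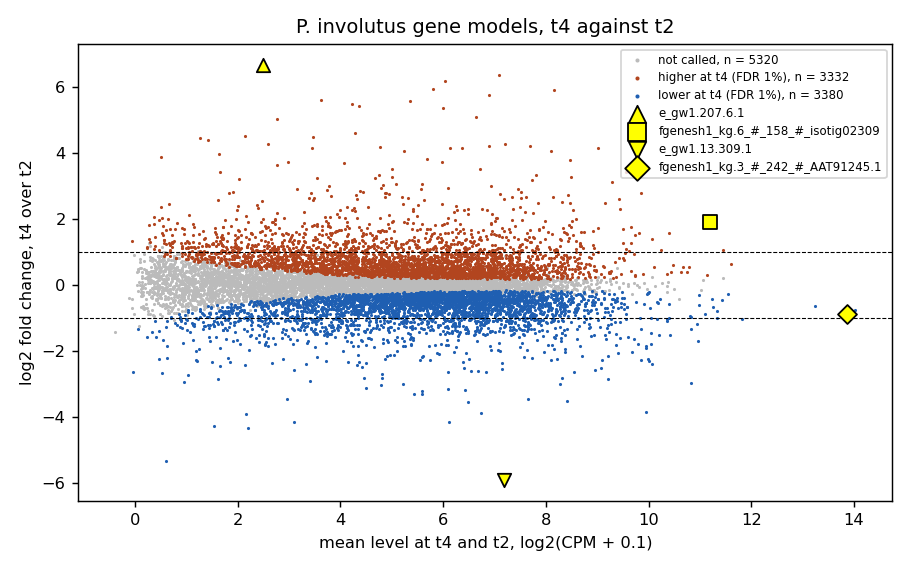
Log2 fold change of each of the 12032 tested *P. involutus* gene models, t4 over t2 (vertical axis), against its mean level at t4 and t2 as log2(CPM + 0.1) (horizontal axis). Red points are the 3332 models called higher at t4, blue points the 3380 called lower, grey points were not called, dashed lines mark 2-fold, and the 4 yellow symbols are the models described by name. The largest rises reach 6.66 and the largest fall -5.91, and the most abundant models lie mostly below 0 with this TMM scaling.

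The models that rose most had low levels at t2, which is partly set by choosing them for a large ratio of t4 to t2. The 13 models at least 32-fold higher had means of 10.9 to 559 CPM at t4 (median 109) and of 0.0929 to 9.27 CPM at t2 (median 1.76). Their median was 4.54 CPM at t1 and 23.5 CPM at t3. Among the 54 models at least 8-fold higher, the median was 59.7 CPM at t4 and 3.77 CPM at t2. The 21 models at least 8-fold lower had a median of 7.95 CPM at t4 and 87.1 CPM at t2. No tested model was without reads in all 3 t4 or in all 3 t2 libraries, and 1 model had at most 3 reads over the t2 libraries and at least 100 over the t4 libraries.

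That model was e_gw1.207.6.1, which also had the largest fold change. It had 113, 142 and 118 reads in the t4 libraries, against 0, 1 and 2 in the t2 libraries. In CPM these were 10.2, 12.1 and 10.6 at t4, against 0, 0.0996 and 0.179 at t2. All t4 libraries lay far above all t2 libraries, and the summed reads, 373 at t4 and 3 at t2, gave a ratio of 113 after correction for library size (exact 95% interval 38.5 to 553, for counting error only). Its log2 fold change was 6.66 (SE 0.39, adjusted p = 7.79e-11 in edgeR). In CPM most of the rise came after t3, with 0.312 ± 0.244 CPM at t1 and 0.998 ± 0.545 CPM at t3 (SD, n = 3 each). As a ratio the level had also risen from t2 (mean 0.0929 CPM) to t3. Over 13 alternative fits the log2 fold change ranged between 5.55 and 7.47, with the highest adjusted p at 3.89e-06 (edgeR or DESeq2). The t2 level rests on 3 reads.

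The model with the largest rise in CPM was fgenesh1_kg.6_#_158_#_isotig02309. It had 3764, 3720 and 3641 CPM in the t4 libraries, against 965, 1007 and 1005 CPM in the t2 libraries. Every t4 library was far above every t2 library, and replicates differed little. The model was the 6th most abundant at t4 and the 79th at t2. Its mean was 1052 ± 43.9 CPM at t1 and 2005 ± 67.1 CPM at t3 (SD, n = 3 each), so that the level was flat until t2 and then increased in both later steps. The log2 fold change was 1.90 (SE 0.056, adjusted p = 8.94e-15 in edgeR). With the authors' factors it turned to -0.28 (SE 0.065, adjusted p = 0.00195 in edgeR), a turn shared by other abundant models and described with them.

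The largest fold decrease was that of e_gw1.13.309.1. Its t4 libraries had 4.51, 5.02 and 4.65 CPM, against 309, 263 and 283 CPM in the t2 libraries. These values stand on 50, 59 and 52 reads at t4, against 3031, 2641 and 3163 reads at t2. The log2 fold change was -5.91 (SE 0.15, adjusted p = 1.05e-15 in edgeR), and -5.33 with the authors' factors. The t2 level was a peak, since the mean was 39.5 ± 6.19 CPM at t1 and 51.1 ± 9.15 CPM at t3 (SD, n = 3 each), and at t4 it was below each of these.

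The largest fall in CPM was that of fgenesh1_kg.3_#_242_#_AAT91245.1, the 2nd most abundant model at both time points. It had 10925, 10151 and 10459 CPM in the t4 libraries, against 18450, 19505 and 19583 CPM in the t2 libraries. The groups did not overlap, and the model took 1.13% of all reads at t4 and 1.91% at t2. Its mean was 21203 ± 1676 CPM at t1 and 15482 ± 706 CPM at t3 (SD, n = 3 each), so the mean went down at each step. The log2 fold change was -0.87 (SE 0.068, adjusted p = 3.54e-09 in edgeR). With the authors' factors it became 0.19 (SE 0.056, adjusted p = 0.00949 in edgeR).

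**Figure D2:**
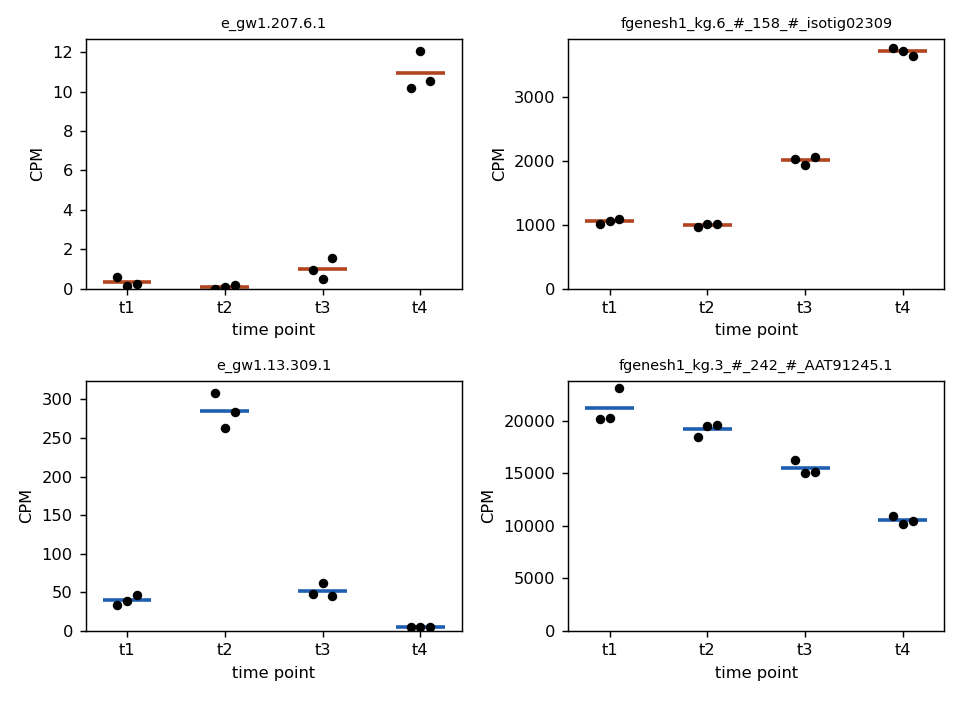
CPM of the 4 named gene models in the 3 libraries (points) and their mean (line) at each of the 4 time points, with a vertical axis of its own in each panel. Red lines mark models higher at t4 than at t2 and blue lines models lower at t4, and in each panel the t4 points and the t2 points do not overlap.

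The direction of change was related to abundance. The deciles rank models by mean log2 CPM over all 12 libraries, t4 and t2 included, so that the ranking is not independent of the change. How far this sets the relation was not tested. In the decile of models with the lowest mean level (median 1.95 CPM), 209 were higher (17.4%) and 87 lower (7.23%) at t4, and 24.6% were called. In the decile with the highest level (median 288 CPM), 328 were higher (27.2%) and 560 lower (46.5%), and 73.8% were called. Over all tested models 27.7% were higher and 28.1% lower. The median log2 fold change was 0.15 in the lowest decile and -0.16 in the highest. Precision changed along the same scale, with a median standard error of 0.26 in the lowest decile and 0.064 in the highest, so that small changes at low level were not detectable at this depth. At least 2-fold changes followed the same order, with 133 higher and 64 lower models in the lowest decile, and 78 higher and 145 lower in the highest. With the authors' factors the excess of rises in the lowest decile was smaller, with 119 higher and 100 lower models (median 0.03), while the highest decile held 267 higher and 488 lower (median -0.19).

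The most abundant models by mean CPM over the 12 libraries were mainly lower at t4. This ranking also includes the compared libraries. Of the top 10, 1 was higher and 8 lower, with a median log2 fold change of -0.70. Of the top 100, 19 were higher and 63 lower (median -0.53), including 6 and 27 that changed at least 2-fold. Of the top 500, 122 were higher and 268 lower. Called were 90% of the top 10, 82% of the top 100 and 78% of the top 500. Over all tested models 55.8% were called, 27.7% higher and 28.1% lower. CPM is not corrected for length, so that this order is one of read shares and long genes stand higher in it. The lists at the 2 time points also differed in content. The 10 most abundant models at t4 and the 10 at t2 had 5 in common, the top 100 lists shared 62 models and the top 1000 lists 720.

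These results for abundant models depended on the normalization. The authors' factors, one for each model and library, adjust for transcript length and G/C content as well as depth. For length and G/C content the paper reports full quantile normalization inside each sample, a step that works on the counts themselves. With these factors as offsets in edgeR the top 10 held 1 higher and 1 lower model (median -0.00043). The top 100 then held 10 higher and 46 lower (median -0.28), and 24 of the 82 models called with TMM had the opposite sign. Of all 12032 models, 21 were called in opposite directions by both normalizations, 12 of them higher with TMM and 9 lower, and all 21 belonged to the decile of highest level. In isotig02309 (full name above) the factors were 2.78, 2.79 and 2.55 at t4, against 0.506, 0.526 and 0.597 at t2, and in fgenesh1_kg.3_#_242_#_AAT91245.1 they were 8.07, 7.61 and 7.34 at t4, against 13.3, 14.2 and 16.3 at t2. Each factor divides its count, so that these factors moved in the direction of the counts they scale. The deposited rlog values, which build on the same factors, gave a t4 minus t2 difference of -0.16 for the first and 0.11 for the second model. Which normalization is nearer to the RNA content of the mycelium was not tested.

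Across all models a smaller share of directions turned, with the opposite sign in 127 of the 6712 models called with TMM. The choice still changed which models were called. The factors gave 2910 higher and 2975 lower models, of which 2584 and 2643 were called in the same direction with TMM. They removed 736 of the higher and 728 of the lower calls and added 317 and 320 others. The lists of at least 2-fold changes shared 539 higher models, 66.5% of the TMM list and 73.8% of the list with factors, and 531 lower models, 72.2% and 68.3% of the same lists. The log2 fold change with factors minus that with TMM had a median of -0.0082, and in 90 of 100 models it lay between -0.51 and 0.42.

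**Figure D3:**
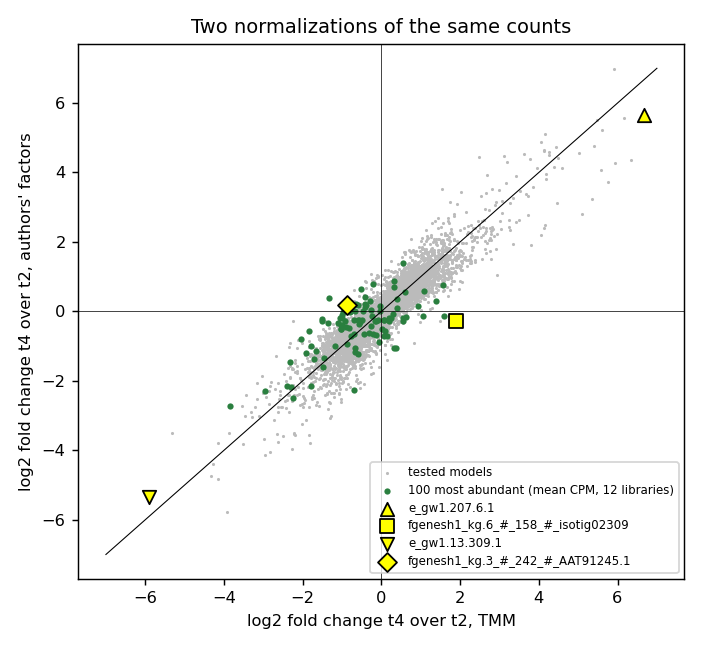
Log2 fold change, t4 over t2, of each tested model with the authors' factors as offsets (vertical axis) against that with TMM (horizontal axis), where the diagonal marks equal values. Green points are the 100 most abundant models by mean CPM over the 12 libraries, 24 of whose 82 TMM calls have the opposite sign with the factors, and yellow symbols are the 4 named models, 2 of which change sign.

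Reads were spread over more models at t4 than at t2. The effective number of models, the exponential of the Shannon entropy of the read shares, was 4444, 4465 and 4499 in the t4 libraries, against 3823, 3781 and 3842 in the t2 libraries. The means were 4469 ± 27.7 at t4 and 3815 ± 30.8 at t2 (SD, n = 3 each), a difference of 654 (two-sided exact permutation test, p = 0.1, the smallest p that 3 against 3 libraries allow). The 100 most abundant models of each library held 17.2 ± 0.199% of the reads at t4 and 20.6 ± 0.134% at t2 (SD, n = 3 each, exact permutation p = 0.1). The 10 most abundant held 5.64 ± 0.268% at t4 and 7.61 ± 0.0956% at t2 (SD, n = 3 each, exact permutation p = 0.1). In both measures the t4 and t2 libraries did not overlap. The effective number was 3383 to 3435 in the t1 libraries and 4120 to 4174 in the t3 libraries, so that the ranges of the 4 time points did not overlap and each lay above the one before. The number of models with a read, in libraries thinned to 9843577 reads, was 13202 ± 29.1 at t4 and 13194 ± 20.7 at t2 (SD, n = 3 each, exact permutation p = 0.6). A difference in the number of detected models was thus not seen at this depth, while the reads were divided more evenly among them.

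The size of this difference depended on few models and on the scaling. Without the 10 most abundant models by mean CPM the effective number differed by 343 and the share of the top 100 by -1.61 percentage points, against 654 and -3.38 with them. With counts divided by the authors' factors the differences were 481 and -1.69. The t4 and t2 libraries stayed apart in each of these settings (exact permutation p = 0.1, n = 3 each).

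*L. bicolor* was set beside it over its own t4 and t2. There the effective number was 2406 ± 20.6 at t4 and 2430 ± 43.6 at t2, and the top 100 held 33.6 ± 0.166% at t4 and 32.9 ± 0.383% at t2 (SD, n = 3 each). The change in *P. involutus* exceeded that in *L. bicolor* by 677 effective models (exact permutation of the time labels within each species over 400 relabellings, p = 0.02, adjusted 0.02 over the 2 measures). For the share of the top 100 the difference of the changes was -4.10 percentage points (p = 0.005, adjusted 0.01, same exact test). The null of this permutation is that neither species changed between t2 and t4, so that a change in *P. involutus* alone can give a small p. Whether the changes of the species were equal was not tested. The shares of models called at t4 against t2 lie side by side without a test. In *L. bicolor* 3637 of 14352 tested models were higher at t4 (25.3%) and 3807 lower (26.5%), together 7444 (51.9%), with 786 (5.48%) and 863 (6.01%) at least 2-fold, and the median absolute log2 fold change was 0.35. The days of harvest, the length of pre-growth given in the paper and the gene catalogues differ between the species, among other things. Their part in these differences was not tested.

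**Figure D4:**
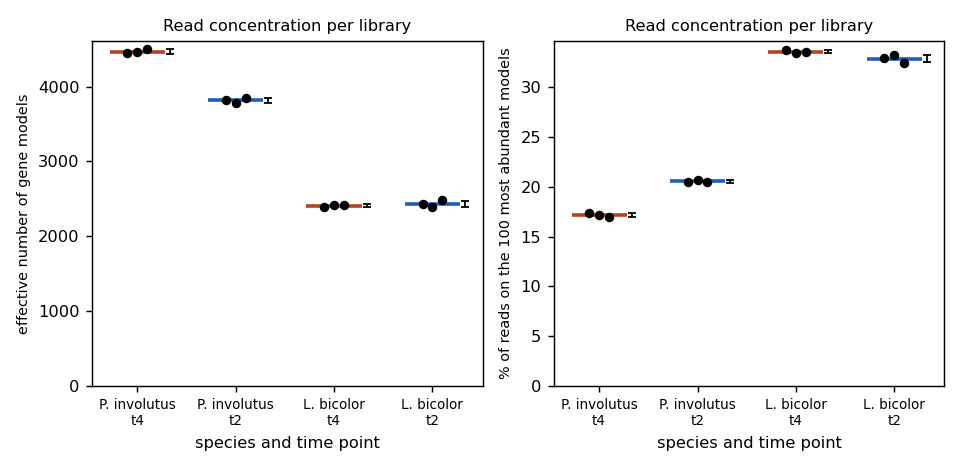
Effective number of gene models (left) and percent of reads on the 100 most abundant models (right) in each library at t4 and t2 of *P. involutus* and *L. bicolor*, with points for the 3 libraries, a coloured line for their mean (red t4, blue t2) and a black bar for ± 1 SD. In *P. involutus* the t4 libraries lie at 4444 to 4499 effective models, above the t2 libraries at 3781 to 3842, whereas the means of *L. bicolor* are 2406 at t4 and 2430 at t2.

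The called models exchanged a large share of the reads. The 3332 higher models held 37.8 ± 0.497% of the reads at t4 and 20.8 ± 0.470% at t2, and the 3380 lower models held 33.4 ± 0.692% at t4 and 52.6 ± 0.715% at t2 (SD, n = 3 each). The models at least 2-fold higher held 11.05 ± 0.520% at t4 and 3.34 ± 0.142% at t2. Those at least 2-fold lower held 5.60 ± 0.117% at t4 and 14.5 ± 0.333% at t2. The models were chosen on these libraries, so that the direction of each share is set by the choice and only its size is described. In the t1 and t3 libraries, which the contrast does not use, the models at least 2-fold higher held 3.36 ± 0.0748% at t1 and 6.86 ± 0.0239% at t3. The models at least 2-fold lower held 13.8 ± 0.178% at t1 and 9.37 ± 0.0328% at t3.

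On the log2 scale, more than 0.5 of the difference between t4 and t2 was, on median, present on day 9 in the models changed at least 2-fold. To describe this, each t3 library was placed for each model on a scale of log2 CPM on which 0 is the t2 mean and 1 the t4 mean. The medians over the 810 models at least 2-fold higher were 0.604, 0.608 and 0.596 in the 3 t3 libraries (mean 0.602 ± 0.00635). Over the 735 models at least 2-fold lower they were 0.550, 0.568 and 0.567 (mean 0.562 ± 0.0101). The 3 libraries gave nearly equal values, and the mean was higher for the models that rose, by more than their spread. That gap did not hold with the deposited rlog values, which gave 0.565 for the higher and 0.586 for the lower models. The scale is built from the t2 and t4 libraries on which the models were chosen, and no test was made. In CPM, the medians over the higher models were 10.0 at t2, 18.5 at t3 and 31.7 at t4. More of this rise thus came after t3 than before it. Over the lower models the medians were 55.9, 32.9 and 19.7 CPM, with more of the fall before t3.

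Single models varied around these medians. For 93.5% of the higher and 96.6% of the lower models the t3 mean lay between the t2 and the t4 mean. It lay beyond the t4 mean in 42 higher and 12 lower models, and on the far side of the t2 mean in 11 and 13. More than 0.75 of the log2 change had occurred by t3 in 218 of the higher models (26.9%) and in 79 of the lower models (10.7%). Less than 0.25 of it had occurred in 70 and 58 models. Tested one step at a time in the same fit, 2232 models were higher (18.6%) and 2294 lower (19.1%) at t3 than at t2, with 324 (2.69%) and 172 (1.43%) at least 2-fold. At t4 against t3, 1421 were higher (11.8%) and 1599 lower (13.3%), with 167 (1.39%) and 134 (1.11%) at least 2-fold. These steps share libraries with each other and with the comparison of t4 and t2.

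**Figure D5:**
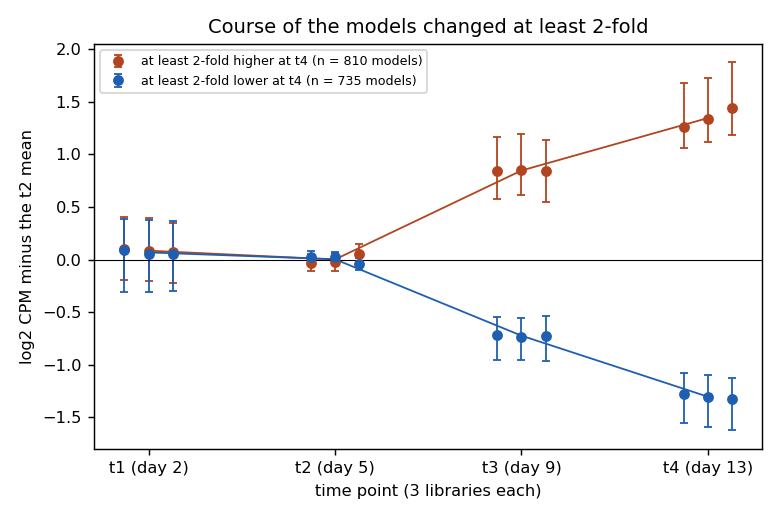
Median log2 CPM minus the t2 mean (vertical axis) over the 810 models at least 2-fold higher at t4 (red) and the 735 at least 2-fold lower (blue), in each of the 3 libraries per time point (points), with bars for the interquartile range over models and lines through the mean of the 3 medians. The t1 medians lie near 0, and the t3 medians lie between those of t2 and t4 in both groups.

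Before ammonium was used up, these models were on median close to their t2 level. On the same scale, the t1 libraries stood at 0.0563 ± 0.0101 for the higher models and at -0.0492 ± 0.0127 for the lower models (SD, n = 3 libraries). For the lower models the t1 value moved to -0.0219 without replicate 3 of t2. The t1 mean was within 0.25 of the t2 level in 515 of the 810 higher models (63.6%) and in 365 of the 735 lower models (49.7%). The medians near 0 thus cover models above and below their t2 level at t1.

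Smaller groups were picked out by a t1 level away from their t2 level, so that this difference is set by the choice. Of the higher models, 55 (6.79%) were nearer to the t4 than to the t2 level at t1, that is, they were lower at t2 than at t1 and t4. Their median at t1 was 20.3 CPM, followed by 5.16 at t2, 10.98 at t3 and 18.0 at t4. Of the lower models, 71 (9.66%) stood at -0.5 or below on the scale at t1, that is, above their t2 level, and 73 (9.93%) were nearer to the t4 level at t1. The median of the 73 at t1 was 20.4 CPM, followed by 38.5 at t2, 26.8 at t3 and 11.7 at t4, a peak at ammonium depletion, and e_gw1.13.309.1, just outside this group, also peaked at t2. Among the higher models, 29 (3.58%) stood at -0.5 or below at t1, that is, under their t2 level. These groups were formed from the same libraries and carry no test.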

How the data were processed

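Reads from 24 libraries were processed by the authors, who removed ribosomal reads, aligned the rest to the gene models of each species (TopHat2 2.0.13, 1 transcriptome hit per read) and deposited counts on coding sequence (HTSeq 0.6.1, strand used). Near-identical copies are therefore uncertain. The authors also deposited normalization factors, a ratio for each model and library (EDASeq, DESeq2 1.14.1), and rlog values on a log2 scale.

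Counts with a mean of at least 11 were tested with edgeR 4.0.16 (R 4.3.3; TMM, quasi-likelihood, all 12 *P. involutus* libraries, contrast t4 minus t2). Positions used log2 CPM with a prior count of 2. In simulated data for this comparison (12032 models), known changes were placed in 67 models at 1.5-fold, 67 at 2-fold and 66 at 4-fold. These were drawn only from models well above the count minimum, and the simulated spread followed the mean level alone. Of them 94%, 98.5% and 100% were recovered, with 2 false calls. Recovery in models near the minimum was not simulated, and far fewer models changed than were called in the data. Models to be named were, among called models without overlap and with at least 10 CPM in the higher group, those with the largest change each way in fold and in CPM. Members and lists were chosen with earlier results of these data known. Replicate numbers did not pair t4 with t2 libraries. Alternatives were other normalizations (DESeq2 1.42.0 included), no filter, a false discovery rate of 5%, the 6 libraries alone, a replicate block and each library left out.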

Additional observations from a re-analysis of the deposited data

Results flagged for a closer look

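The change of the share of reads on the 100 most abundant models, t4 minus t2, differed between the species by -4.10 percentage points, with -3.38 points for *P. involutus* and 0.72 points for *L. bicolor*. The change of the effective number of models differed by 677, *P. involutus* minus *L. bicolor*. Both differences had a small p in the exact permutation of the time labels within species described above. Its null is no change in either species, so that it does not test whether the changes were equal.

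Among the 1689 models with reads that stayed under the count minimum, and so were outside the comparison, a fit without the minimum called 33 higher and 28 lower at t4 (edgeR, false discovery rate 1%). Of these, 1 of the higher models had no read at t2 and 5 of the lower models had none at t4.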

How the results depend on the processing

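Of 216 alternative values, 198 kept their direction and side of the threshold (counts of models within 1.5 times, positions within 1 SD). Counts were compared by number alone, not by which models they held. With the authors' factors the count of models at least 2-fold higher was 730 against 810, with 539 models shared. Among the 198 it stands as kept. Among the 198 values, 3 still moved by over 1.5 times. The share of the top 100 moved to -1.69 with the authors' factors and to -1.61 without the 10 most abundant models, and the effective number to 343 without those models. For both of these measures p cannot fall below 0.1 in any setting. They could therefore change direction but not side of the threshold, and their count among the 198 speaks only to direction. With the authors' factors the log2 fold change of isotig02309 was -0.28 and that of AAT91245.1 was 0.19, both in edgeR and in DESeq2 (the DESeq2 fit was chosen after seeing the data), and the cause was not tested. The t3 position of models at least 2-fold higher was 0.565 with rlog values, 0.586 with the factors and 0.588 for models past 1.5-fold by TREAT. That of the lower models was 0.586 with rlog values. The t1 position of the higher models was 0.0383 for the TREAT models, and that of the lower models was -0.0798 with rlog values and -0.0835 for the TREAT models. With single libraries left out, the t3 positions ranged from 0.584 to 0.616 (higher) and from 0.554 to 0.571 (lower), and the t1 positions from 0.0394 to 0.0733 (higher) and from -0.0593 to -0.0219 (lower), while calls stayed between 2977 and 3202 (higher) and between 3074 and 3241 (lower). With the replicate number as a block, 3266 models were higher and 3339 lower. The numbers did not pair the libraries (correlations of deviations 0.05, -0.03 and 0.07), and the block turned no direction and moved no count of calls by more than 1.5 times. The smallest p of 0.1 for 3 against 3 libraries limits the tests on library totals, and low counts limit fold changes in the lowest decile of models.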

Other observations

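The gene model names begin with 9 prefixes, and the share of models changed is given for each as a description, beside 6.73% at least 2-fold higher and 6.11% at least 2-fold lower at t4 over all tested models. Of the tested models with the prefix gm (median 12.3 CPM), 8.83% were at least 2-fold higher and 5.13% at least 2-fold lower at t4. Of those with the prefix gw (median 6.70 CPM), 8.92% were higher and 3.40% lower. Of those with the prefix fgenesh1_kg (median 84.1 CPM), 6.24% were higher and 7.59% lower, and of those with the prefix fgenesh1_pm (median 71.7 CPM), 3.49% were higher and 6.98% lower. The other prefixes were e_gw (median 25.5 CPM) with 4.90% higher and 7.10% lower, estExt_Genemark (18.8 CPM) with 7.97% and 5.50%, and estExt_Genewise (39.6 CPM) with 6.11% and 5.39%. Of estExt_fgenesh (32.6 CPM) 6.03% were higher and 5.36% lower, and of fgenesh1_pg (22.6 CPM) 7.93% and 5.49%. The prefixes differ in level as well as in the share changed, and whether level accounts for this was not tested.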
